A study of Homo sapiens with 12 samples.

Results

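Knockdown of the RNA helicase DHX15 was compared with a non-target control in the human embryonic kidney line HEK293 Flp-In T-REx, which carries a site for inducible transgenes. The libraries were chosen by their labels, and 6 of the 12 libraries of the study belong to the comparison. All 6 came from cells of wild-type genotype, of which 3 cultures received siRNA against DHX15 (siDHX15) and 3 received non-target siRNA (siNT). The other 6 libraries came from untreated wild-type cells (WT) and from cells with a GPATCH4 knockout, and they entered the fit to estimate the spread and to set the effects side by side. RiboMeth-seq read out 2'-O-methylation in 18S, 28S and 5.8S rRNA and in the spliceosomal RNAs U1, U2, U4, U5 and U6, at 141 listed sites in all. The siRNA sequences and the time of treatment are not given in the sources used here. The assay sees neither the DHX15 transcript nor its protein, so the depth of the knockdown is unknown, and the labelled cell line could not be checked against marker genes.

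Box C/D ribonucleoproteins place many, but not all, of the 2'-O-methyl groups on ribosomal and spliceosomal RNA. Their enzyme is the methyltransferase fibrillarin, and a small guide RNA pairs with the target. DHX15 is a DEAH-box helicase that G-patch proteins activate, and it is known for taking apart spliceosomes and for a role in making ribosomes. A 2'-O-methyl group protects the next bond from alkaline cleavage, so fewer reads begin or end there than at neighbouring positions. The RMS score used here is 1 minus the read ends at a position over the weighted mean of the 6 positions on either side. It runs from 0, where read ends are not depleted, to 1, where there are none, and it is an average over all cells of a culture. A lower level in every cell and a complete loss in some of the cells cannot be told apart.

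The run with the most lower sites was a short segment of 28S rRNA, shown here because 7 of its 8 listed sites were lower in siDHX15. Capitals mark the listed sites, and positions are those of the sequences in the deposited tables (28S, 2345 to 2428).
28S-Cm2350 to Gm2423: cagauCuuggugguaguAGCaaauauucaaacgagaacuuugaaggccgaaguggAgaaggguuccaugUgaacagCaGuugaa
A second run of 28S (2798 to 2841) held 4 listed sites, and all 4 were lower.
28S-Cm2803 to Um2836: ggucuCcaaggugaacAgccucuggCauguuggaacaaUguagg
Other sites with large decreases are given with the 10 bases on each side and the methylated base in capitals.
18S-Um172: cuagagcuaaUacaugccgac
18S-Cm174: agagcuaauaCaugccgacgg
28S-Gm4637: uuugguguauGugcuuggcug
28S-Cm1340: accaaggaguCuaacacgugc
28S-Am398: aacuuugaagAgagaguucaa
18S-Gm1490: agcaauaacaGgucugugaug
18S-Um1804: cggucgaacuUgacuaucuag
28S-Um3818: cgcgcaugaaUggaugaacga
U2-Gm19: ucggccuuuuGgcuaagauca
In 18S-Cm174 and 28S-Am398 the methylated base has another listed site 2 positions away, Um172 before the first and Am400 after the second. No genome was used here, so the sites carry no chromosome coordinates, and rRNA genes are repeated arrays that share these reads.

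Replicates 1 to 3 of siNT had 1796931, 1736931 and 1705278 read ends in total. Those of siDHX15 had 875096, 1462423 and 5111963. At rRNA sites the neighbour mean had a median of 336 to 354 in siNT and of 172, 273 and 890 in siDHX15. At snRNA sites this median was only 24.1 to 99.6, which limits what could be seen there. The reads carry no molecular identifiers and may be copies of one molecule, so these numbers bound the counting error alone. Between replicates the counts scattered beyond sampling noise, with 7.22 to 27.6 for chi-square over its degrees of freedom. The correlation of site scores between replicates was 0.847 to 0.913 across sites.

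Scores were lower in siDHX15 at 44 of the 141 sites and higher at 0 (limma, Benjamini-Hochberg adjusted p under 0.05). These are 31.2% and 0% of the sites tested, and 59 sites had an unadjusted p under 0.05. edgeR, run on the read ends, called 48 sites lower and 0 higher, and 39 of the 44 were among its 48. The groups were fully separated, with siDHX15 the lower, at 62 sites or 44%, among them each of the 44. At no site were they separated the other way. The median score over all sites was 0.910, 0.911 and 0.908 in the siNT libraries and 0.824, 0.821 and 0.836 in the siDHX15 libraries. The difference in score was negative at 118 sites, with a median of -0.0569 over all 141. When every library was centred by its median deviation from the site means, which takes this common shift away, 27 sites were lower and 15 higher, and all 27 were among the 44.

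Most decreases were partial. The siDHX15 mean at the 44 lower sites ran from 0.227 to 0.933, with 9 sites under 0.5, 30 from 0.5 to 0.9 and 5 at 0.9 or more. A median of 27.7% of the siNT score was lost, and 28S-Cm2421, 18S-Cm174, 28S-Gm4637 and 28S-Cm1340 lost more than 50% of it. The siRNA control was also set against untreated cells. siNT against WT gave 0 called sites (limma, 10 at an unadjusted p under 0.05). The largest siNT to WT difference at a lower site had a size of 0.225 and was at 18S-Gm867, where siNT was the higher. The siDHX15 mean was below the lowest WT score at 42 of the 44. As the 44 were chosen for low siDHX15 scores, this count is a description and no separate support for the calls. The exceptions were 18S-Gm867 and 28S-Um2836.

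**Figure D1:**
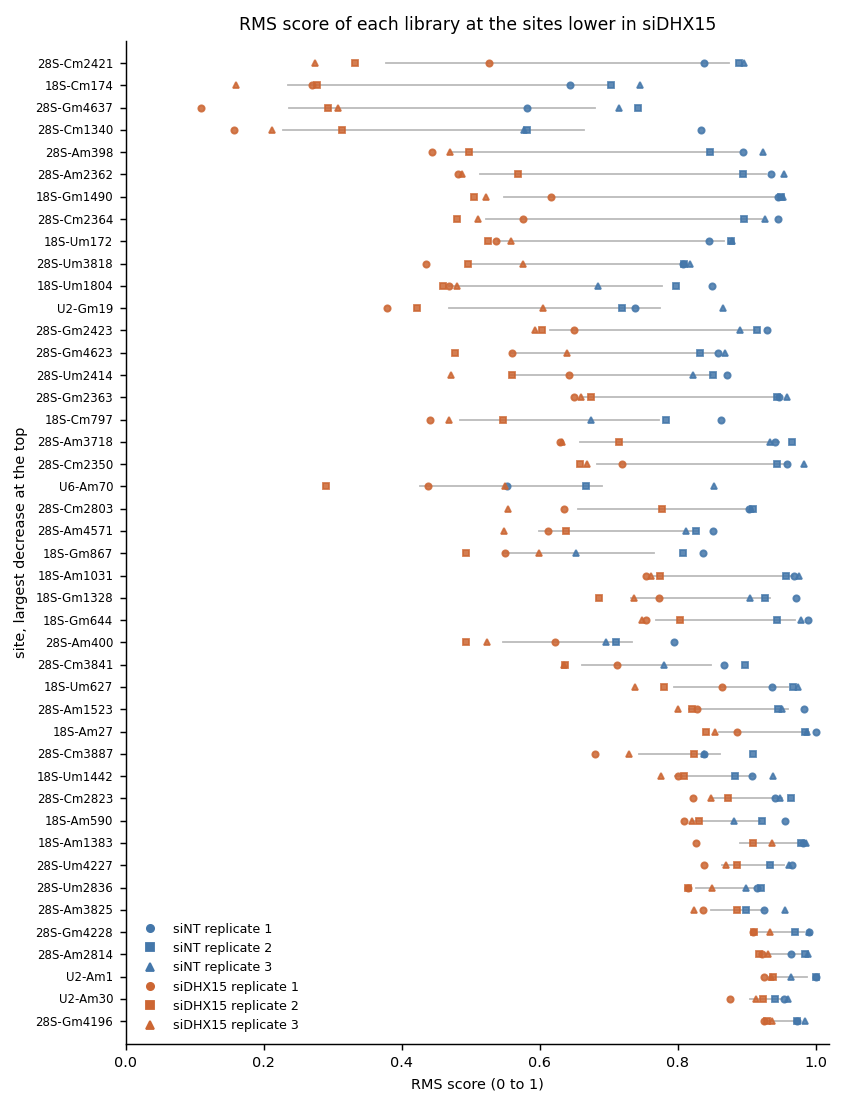
RMS score (horizontal axis, 0 to 1) of every siNT library (blue) and siDHX15 library (orange) at the 44 lower sites, ordered by the size of the decrease, with marker shape for the replicate and a grey line between the group means. The siDHX15 points lie to the left of the siNT points at each site, far apart at 28S-Cm2421 and nearly touching at U6-Am70.

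In 28S rRNA, the catalytic RNA of the large subunit, 26 of 68 sites were lower, and the median difference over the 68 was -0.0653. The sites between Cm2350 and Gm2875 stood out by count, with 11 of 15 lower and a median difference of -0.251. Elsewhere in 28S, 4 of 14 were lower from Am398 to position 2043, 5 of 21 from position 3627 to 4054, 3 of 12 from Gm4196 to position 4536 and 3 of 6 from Am4571 to Gm4637. These segments were drawn with earlier results of these data known, so their counts are descriptions.

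**Figure D2:**
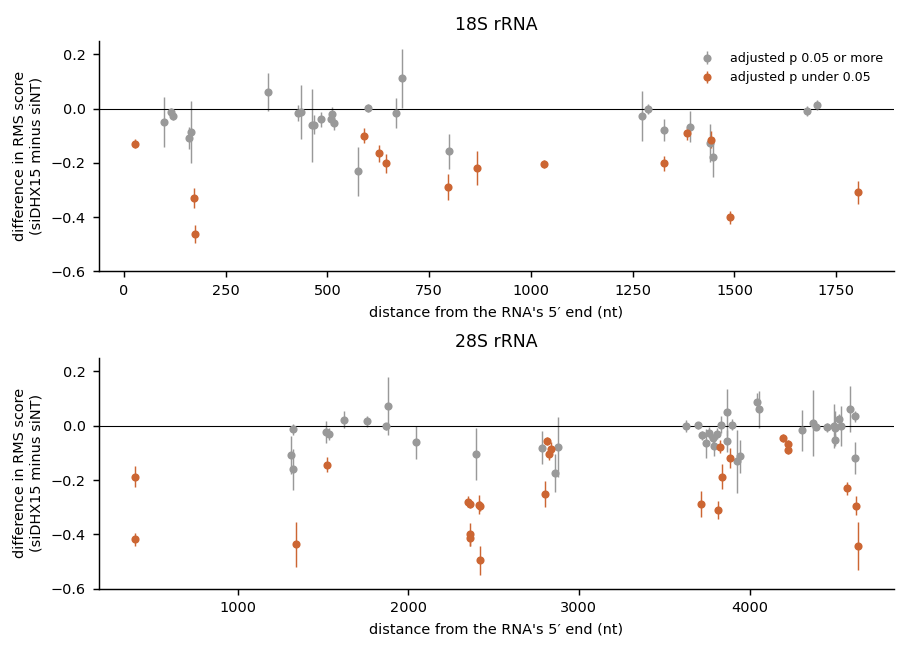
Difference in mean RMS score (siDHX15 minus siNT, vertical axis) against the position of each listed site in 18S (top) and 28S (bottom), with bars for the standard error of the limma fit and orange for an adjusted p under 0.05. In 28S the lower sites crowd most from position 2350 to 2423, and all 40 called sites shown are below 0.

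The largest decrease of all was at 28S-Cm2421. Its scores were 0.838, 0.888 and 0.896 in siNT and 0.527, 0.332 and 0.274 in siDHX15. All siDHX15 libraries were far below all siNT libraries, with a difference of -0.496 (SE 0.0526, adjusted p = 4.77e-05). The siNT libraries had 65, 43 and 44 read ends at this position and the siDHX15 libraries 103, 198 and 745, so that even the shallowest siDHX15 library had more read ends there than any siNT library. At the next base, which is not a listed site, the siNT libraries had 576, 441 and 627 read ends and the siDHX15 libraries 364, 373 and 1740. At Gm2423, 2 positions on, the scores were 0.929, 0.915 and 0.890 in siNT and 0.650, 0.603 and 0.593 in siDHX15. The groups were again far apart, with a difference of -0.296 (SE 0.0194, adjusted p = 1.30e-06). Um2414, upstream of both, scored 0.871, 0.851 and 0.822 in siNT and 0.643, 0.560 and 0.472 in siDHX15, a difference of -0.290 (SE 0.0360, adjusted p = 0.000131).

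Am2362, Gm2363 and Cm2364 are 3 methylated bases in a row. Am2362 scored 0.936, 0.895 and 0.954 in siNT and 0.482, 0.569 and 0.488 in siDHX15, and its difference was -0.415 (SE 0.0261, adjusted p = 1.20e-06). Gm2363 scored 0.947, 0.944 and 0.959 in siNT and 0.650, 0.674 and 0.660 in siDHX15, a difference of -0.289 (SE 0.0127, adjusted p = 1.59e-07). Its replicates lay close together, and this adjusted p was the lowest of all sites. Cm2364 scored 0.946, 0.896 and 0.927 in siNT and 0.576, 0.480 and 0.510 in siDHX15, a difference of -0.401 (SE 0.0431, adjusted p = 4.77e-05). Each siNT library had 25 to 65 read ends at these 3 positions, and each siDHX15 library had 101 to 766. Cm2350, for which SNORD24 is a known guide, as it is for Cm2364, scored 0.959, 0.944 and 0.983 in siNT and 0.720, 0.658 and 0.669 in siDHX15, a difference of -0.280 (SE 0.0205, adjusted p = 2.30e-06). These neighbours enter one another's score, and with listed sites left out of the neighbours all 7 sites of the segment were still lower. The exception within the segment was Am2400, at 0.761, 0.766 and 0.731 in siNT and 0.628, 0.589 and 0.732 in siDHX15. The groups overlapped slightly, and the difference of -0.103 did not pass the threshold (adjusted p = 0.486).

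The 4 sites of the next run downstream had differences from -0.251 to -0.0557. Cm2803 went from a siNT mean of 0.906 to 0.656 (adjusted p = 0.00237), and its call was lost from read 3' ends alone (adjusted p = 0.227). Cm2823 went from 0.951 to 0.848 (adjusted p = 0.00522), and its call was lost after centring (-0.0342, adjusted p = 0.325), blocked by library index (adjusted p = 0.148) and from read 3' ends alone (adjusted p = 0.107). The decreases at Um2836, from 0.911 to 0.827 (adjusted p = 0.0188), and at Am2814, from 0.979 to 0.923 (adjusted p = 0.0151), were smaller. Both lost the call with the replicate number as a block (adjusted p = 0.0541 for Um2836 and 0.0529 for Am2814). Cm2860, just past this run, had a difference of -0.174 that did not pass the threshold (adjusted p = 0.0942), although its groups did not overlap.

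**Figure D3:**
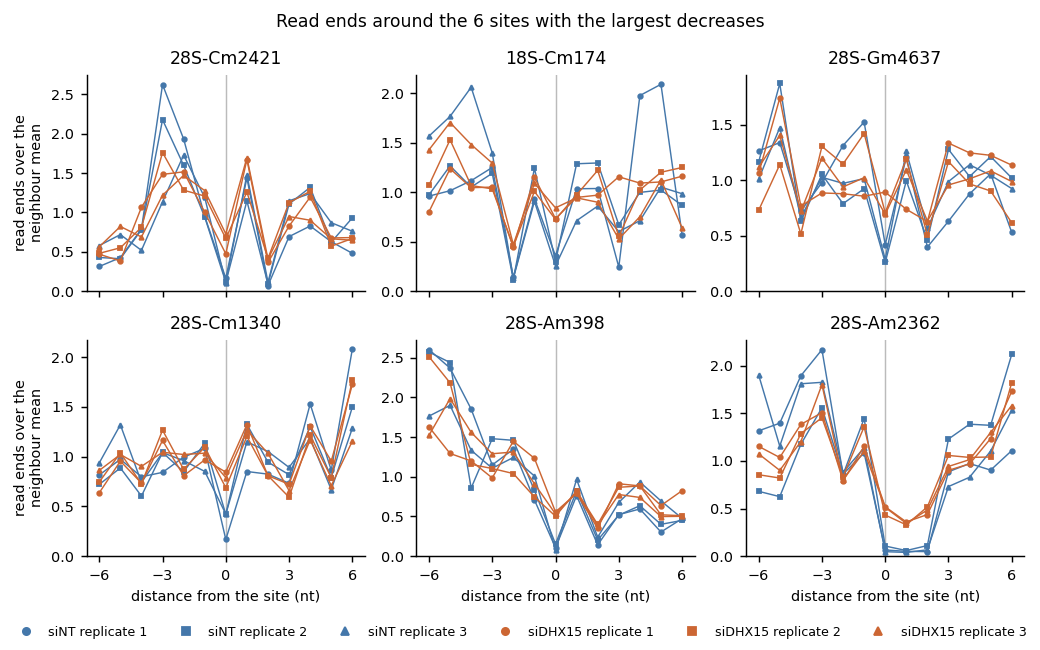
Read ends at each position over the library's neighbour mean at the site (vertical axis) for the 6 positions on each side of the 6 sites with the largest decreases, by library (blue siNT, orange siDHX15). The dip at the site is deep in siNT and shallower in siDHX15, while the lines of the groups cross at most flanking positions. Second dips at listed neighbours, such as 2 positions after 28S-Cm2421, became shallower as well.

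Near the 5' end of 28S, Am398 and Am400 form a pair with separate known guides, SNORD26 and SNORD81. Am398 scored 0.895, 0.847 and 0.924 in siNT and 0.444, 0.497 and 0.469 in siDHX15, a difference of -0.419 (SE 0.0251, adjusted p = 1.20e-06). Am400 was already lower in siNT and went from 0.734 to 0.546 (adjusted p = 0.00409). Further on, Cm1340 scored 0.834, 0.582 and 0.578 in siNT and 0.156, 0.313 and 0.212 in siDHX15. Its siNT replicates were widely spread, with replicate 1 well above the other two, but the groups did not overlap, and the difference was -0.437 (SE 0.0838, adjusted p = 0.00237). Am1523 went from 0.960 to 0.817 (adjusted p = 0.00214).

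From position 3627 to 4054 the lower sites lay between many that were not called. Um3818 scored 0.807, 0.810 and 0.818 in siNT and 0.436, 0.496 and 0.576 in siDHX15, a difference of -0.309 (SE 0.0330, adjusted p = 4.77e-05). Am3718 scored 0.941, 0.966 and 0.934 in siNT and 0.629, 0.715 and 0.632 in siDHX15, a difference of -0.288 (SE 0.0479, adjusted p = 0.00106). Cm3841 went from 0.848 to 0.661 (adjusted p = 0.0121), Cm3887 from 0.862 to 0.744 (adjusted p = 0.0345) and Am3825 from 0.927 to 0.849 (adjusted p = 0.0304). The call at Cm3887 was lost in 13 of 21 alternative settings. Among them were read 5' ends alone (adjusted p = 0.172), read 3' ends alone (0.0782), edgeR (0.0561) and centring (-0.0487, adjusted p = 0.392). Between Am3718 and Cm3887, 9 listed sites did not pass the threshold, with differences from -0.0762 at Gm3792 to 0.0490 at Am3867. Am3760, Am3785 and Gm3792 had siDHX15 scores below all siNT scores without passing it, and Am3724, Gm3744, Cm3808, Am3830, Am3867 and Cm3869 had overlapping groups. The call at Am3825 was lost in 11 of 21 alternative settings, among them the replicate number as a block (adjusted p = 0.0808).

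In the segment from Gm4196 to position 4536 the changes were small, with a median difference of -0.00638 over its 12 sites. The 3 lower ones were Um4227, which went from 0.954 to 0.865 (adjusted p = 0.00207), its neighbour Gm4228, from 0.984 to 0.918 (adjusted p = 0.00370), and Gm4196, from 0.977 to 0.931 (adjusted p = 0.0378). Gm4228 and Gm4196 moved slightly up relative to the common shift, by 0.00361 and 0.0226, when the libraries were centred. Um4227 was no longer called after centring (-0.0199, adjusted p = 0.455), with thinned libraries (adjusted p = 0.0663), from read 3' ends alone (adjusted p = 0.0782) or blocked by library index (adjusted p = 0.105). Gm4196 lost its call in 13 of 21 alternative settings, among them the replicate block (adjusted p = 0.0665). Downstream of them, Gm4637 scored 0.582, 0.743 and 0.714 in siNT and 0.109, 0.293 and 0.308 in siDHX15. This was the third largest decrease, at -0.443 (SE 0.0889, adjusted p = 0.00312). Gm4623 scored 0.859, 0.833 and 0.869 in siNT and 0.560, 0.477 and 0.640 in siDHX15, a difference of -0.295 (SE 0.0360, adjusted p = 0.000123), and Am4571 went from 0.830 to 0.599 (adjusted p = 4.77e-05). Between Am4571 and Gm4623, the sites Am4590 (0.0624, adjusted p = 0.662), Gm4618 (-0.118, adjusted p = 0.160) and Um4620 (0.0345, adjusted p = 0.233) did not pass the threshold.

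In 18S rRNA, the RNA of the small subunit, 14 of 41 sites were lower, with a median difference of -0.0801 over the 41. They were spread along the molecule. Lower sites were 3 of 9 up to position 354, 3 of 13 from position 428 to Gm644, 3 of 6 from position 668 to Am1031 and 5 of 13 from position 1272 to Um1804.

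Cm174 had the largest decrease in 18S. Its scores were 0.644, 0.703 and 0.746 in siNT and 0.269, 0.277 and 0.160 in siDHX15, a difference of -0.462 (SE 0.0335, adjusted p = 2.30e-06), and 66.2% of the siNT score was lost. Um172, 2 positions before it, scored 0.846, 0.878 and 0.878 in siNT and 0.536, 0.524 and 0.558 in siDHX15. The replicates of each group lay close together there, and the difference was -0.328 (SE 0.0367, adjusted p = 6.19e-05). Am27, a target of SNORD27, went from 0.991 to 0.861 (adjusted p = 0.000141). None of the 5 listed sites between Am27 and Um172 passed the threshold. The differences were -0.0493 at Am99, -0.0113 at Um116 and -0.0266 at Um121, where the groups overlapped. They were -0.109 at Am159 (adjusted p = 0.0661) and -0.0858 at Am166 (adjusted p = 0.653), where all siDHX15 scores were the lower ones. The fit pools the spread within all 4 groups, and its standard errors were 0.0399 at Am159 and 0.113 at Am166. The SD at Am166 was 0.0129 in siNT and 0.0287 in siDHX15, so its missing call does not show an unchanged site.

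Other large decreases in 18S were at Gm1490, Um1804 and Cm797. Gm1490, a target of SNORD25, scored 0.946, 0.950 and 0.952 in siNT and 0.616, 0.505 and 0.523 in siDHX15. The siNT replicates were within 0.01 of one another, and the difference was -0.401 (SE 0.0254, adjusted p = 1.20e-06). Um1804, close to the 3' end, scored 0.850, 0.797 and 0.685 in siNT and 0.468, 0.460 and 0.479 in siDHX15, a difference of -0.308 (SE 0.0429, adjusted p = 0.000302). Cm797 in the middle of the molecule scored 0.863, 0.783 and 0.675 in siNT and 0.441, 0.546 and 0.468 in siDHX15, a difference of -0.289 (SE 0.0474, adjusted p = 0.00103). Um799, 2 positions after it, was lower in each siDHX15 library but did not pass the threshold (-0.158, adjusted p = 0.0930).

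Smaller decreases in 18S affected 8 further sites between positions 590 and 1442. Am1031, a target of SNORD59, had one of the clearest, since its replicates barely differed, and went from 0.967 to 0.764 (adjusted p = 1.83e-06). Gm1328 went from 0.934 to 0.732 (adjusted p = 0.000324) and Gm644 from 0.970 to 0.769 (adjusted p = 0.00122). Gm867 went from 0.766 to 0.547 (adjusted p = 0.0194) and Um627 from 0.960 to 0.794 (adjusted p = 0.00221). Am590 went from 0.920 to 0.820 (adjusted p = 0.0163), Am1383 from 0.982 to 0.891 (adjusted p = 0.0158) and Um1442 from 0.910 to 0.795 (adjusted p = 0.0177). With the replicate block Um1442 lost its call (adjusted p = 0.0728). Am1383 lost its call after centring (-0.0226, adjusted p = 0.535), blocked by library index (adjusted p = 0.216), with the 6 siRNA libraries alone (adjusted p = 0.0833) and from read 3' ends alone (adjusted p = 0.0524). The uncalled listed sites from Am590 to Um1442 were Gm601 (0.00334), Am668 (-0.0163), Gm683, Um799, Cm1272 (-0.0284), Um1288 (-0.000684), Um1326 (-0.0801, adjusted p = 0.165), Cm1391 (-0.0668) and Cm1440 (-0.126, adjusted p = 0.214). Um1326 lies 2 positions before the called Gm1328, and its groups did not overlap, as at Um799 and Cm1440. Gm1447, past Um1442, had a difference of -0.178 without overlap (adjusted p = 0.0942).

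Am576 showed the largest difference among sites that did not pass the threshold, at -0.231 (adjusted p = 0.0819). Its scores were 0.619, 0.605 and 0.601 in siNT and 0.385, 0.465 and 0.282 in siDHX15, and the groups did not overlap. The standard error in the fit, which pools the spread within all 4 groups, was 0.0901. At the opposite end, Gm683 had the largest positive difference, 0.112 (adjusted p = 0.498), with siNT scores of 0.755, 0.925 and 0.620 that spanned those of siDHX15.

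In the 5.8S rRNA, which pairs with 28S, neither of the 2 sites passed the threshold. Gm75 went from a siNT mean of 0.967 to 0.936 without overlap (adjusted p = 0.137), and Um14 was low in both groups, at 0.136 and 0.112.

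The 15 sites higher after centring included 28S-Gm4042, which was also called in other settings. 28S-Gm4042 scored 0.589, 0.513 and 0.521 in siNT and 0.670, 0.572 and 0.643 in siDHX15, a difference of 0.0875 (adjusted p = 0.0623). It was higher after centring (0.157, adjusted p = 0.00324). It was the single higher call with the replicate block (adjusted p = 0.0215), without siNT replicate 1 (0.112, adjusted p = 0.0324) and without siDHX15 replicate 2 (0.116, adjusted p = 0.0180). The groups overlapped, since siDHX15 replicate 2 lay under siNT replicate 1. The other large positive differences, at U4-Cm8 (0.0775), 28S-Cm1880 (0.0721) and U5-Um41 (0.0661), came with adjusted p of 0.822, 0.682 and 0.597.

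The spliceosomal RNAs carried 4 lower sites out of 30, against 40 of 111 in rRNA, with a median difference of -0.0452 against -0.0655. They were sequenced less deeply, and this difference between the classes was not tested. U2, which pairs with the branch site of introns, held 3 of the 4 among its 10 sites, and the difference was negative at all 10. U2-Gm19 scored 0.737, 0.720 and 0.865 in siNT and 0.379, 0.421 and 0.605 in siDHX15. The groups were well apart, with a difference of -0.306 (SE 0.0557, adjusted p = 0.00197), although the neighbour mean was as low as 37.0 read ends and the call was lost with the libraries thinned to the shallowest (-0.222, adjusted p = 0.0865).

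SCARNA9 is the listed guide of both U2-Gm19 and U2-Am30. Am30 scored 0.955, 0.940 and 0.960 in siNT and 0.876, 0.923 and 0.914 in siDHX15, a much smaller difference of -0.0472 (SE 0.0159, adjusted p = 0.0476). U2-Am1, next to the cap, scored 1, 1 and 0.965 in siNT and 0.926, 0.939 and 0.935 in siDHX15 from at most 9 read ends at the site, a difference of -0.0551 (SE 0.0142, adjusted p = 0.0138). Both of these small differences lost the call with the replicate block (adjusted p = 0.111 for Am30 and 0.0539 for Am1), and both became positive after centring, at 0.0220 and 0.0140. The call at Am30 was lost in 15 of the 20 alternative settings that gave a value. Um2, Gm11, Gm12 and Gm25 lay between the called U2 sites and did not pass the threshold. U2-Cm61 had a larger difference than Am30, at -0.214, but overlapping groups (adjusted p = 0.0692). With the replicate block the differences at U2-Gm11 and U2-Cm61 passed the threshold (adjusted p = 0.0330 and 0.0366).

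In U6, the RNA at the catalytic centre of the spliceosome, Am70 was the lower site among 8, and no guide is listed for it. It scored 0.552, 0.667 and 0.852 in siNT and 0.438, 0.290 and 0.550 in siDHX15, so that the groups were separated by siNT replicate 1 at 0.552 and siDHX15 replicate 3 at 0.550 alone. The difference was -0.264 (SE 0.0797, adjusted p = 0.0289). This call was lost in 10 of the 20 settings that gave a value. From read 3' ends alone the difference at Am70 was -0.0140 (adjusted p = 0.944), and with thinned libraries it was -0.123, without a call in either. The call was also lost after centring (adjusted p = 0.0979), with the 6 siRNA libraries alone (0.101), blocked by library index (0.126) and in edgeR (0.0924). U6-Cm62 came closest among the others (-0.163, adjusted p = 0.0732, and adjusted p = 0.0254 with the replicate block). None of 3 sites in U1, 4 in U4 or 5 in U5 passed the threshold. U4-Gm2 had a difference of -0.190 (adjusted p = 0.165, and adjusted p = 0.0201 with the replicate block), with a neighbour mean as low as 2.24 read ends.

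Some of the 44 calls did not hold when single libraries were left out, most of them for more than 1 choice of library. The call at 18S-Am590 was lost without siNT replicate 1 (adjusted p = 0.0679). At 18S-Gm867 it was lost without siNT replicate 1, siNT replicate 2 or siDHX15 replicate 2 (adjusted p from 0.0668 to 0.0774), and at 18S-Um1442 without siNT replicate 3 or siDHX15 replicate 3 (0.0581 to 0.0678). At 28S-Am2814 it was lost without siNT replicate 2 or 3 (0.0507 to 0.0522), and at 28S-Um2836 without replicate 1 or 2 of either group (0.0530 to 0.0601). At 28S-Am3825 it was lost without replicate 1 or 3 of either group (0.0744 to 0.109), and at U2-Am1 without siNT replicate 1 or 2 (0.0545 to 0.0584). At U6-Am70 it was lost without replicate 2 or 3 of siNT and without replicate 1 or 2 of siDHX15 (0.0585 to 0.1002). At 28S-Cm3887 and U2-Am30 it was lost without any library but siDHX15 replicate 2 (0.0528 to 0.129 and 0.0588 to 0.128), and at 28S-Gm4196 without any one of the 6 (0.0581 to 0.109). The differences stayed negative in all of these fits. Calls of large decreases that other settings ended were 28S-Gm4637 from read 3' ends alone (adjusted p = 0.208), and 28S-Cm1340 and 28S-Am3718 in the fit blocked by library index (adjusted p = 0.0975 and 0.0588). From read 3' ends alone, 18S-Um1804 and 18S-Cm797 also lost theirs (adjusted p = 0.0512 and 0.0782), and so did Um1804 on the logit scale (adjusted p = 0.0740) and Cm797 with no floor at 0 (adjusted p = 0.121). Smaller decreases lost from read 3' ends alone included 18S-Am27 (adjusted p = 0.0774), 18S-Um627 (0.300), 28S-Am400 (0.109), 28S-Am1523 (0.471) and 28S-Cm3841 (0.0668). The last 2 were also lost after centring (0.0720 and 0.0882). Over the 21 alternative settings, 17 sites kept their call in each setting that gave a value, among them 28S-Cm2421, 18S-Cm174, 28S-Am398, 18S-Gm1490 and 28S-Um3818.

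The lower sites were set beside all sites by several features, which apart from the siNT mean score did not choose them. By methylated base, lower sites made up 15 of 44 adenosines, 10 of 32 cytidines, 11 of 39 guanosines and 8 of 26 uridines, all near the 31.2% of all sites. By the preceding base, 16 of 44 sites after A, 14 of 40 after G and 12 of 31 after U were lower, against 1 of 22 after C, which was 28S-Am2814. By the following base the counts were 9 of 26 for A, 8 of 29 for C, 17 of 50 for G and 10 of 36 for U. Among the rRNA sites, 16 of 32 with fewer than 10 G or C in the 20 flanking bases were lower, with a median difference of -0.144. Among those with 10 or more, 24 of 79 were lower, with a median of -0.0557. Of the sites with another listed site within 6 positions 21 of 65 were lower, and of the rest 23 of 76. By siNT mean score, 26 of 79 sites at 0.9 or more, 18 of 54 from 0.5 to 0.9 and 0 of 8 under 0.5 were lower. The siNT score is part of the difference that chose the sites, and low scores have little room to fall before 0. Of the snRNA sites, 2 of 15 with a listed guide and 2 of 15 without one were lower. None of these splits was tested.

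The GPATCH4 knockout was set beside the knockdown only at the 44 sites, since GPATCH4 is a G-patch protein. The knockout lowered 35 of the 141 sites against WT (24.8%), and 9 of these were among the 44, which is 20.5% of the knockdown's lower sites and 25.7% of the knockout's. The shared sites were 18S-Cm174, Gm644, Cm797, Um1442 and Um1804 and 28S-Cm2350, Cm2364, Cm2803 and Am2814. The difference between the effects was tested at each site (limma, adjusted over 141). The 44 were chosen by the knockdown's own decrease, which also enters this difference, so the choice itself favours the knockdown. The counts at the 44 are therefore descriptions and do not rank knockdown and knockout. Sites outside the 44 were not counted. At 28 of the 44 the knockdown's effect was the more negative, for example at 28S-Cm2421 (-0.496 against 0.0101, adjusted p = 0.000403) and 18S-Gm1490 (-0.401 against 0.00459, adjusted p = 1.47e-05). At 6 the knockout's effect was the more negative. These were 18S-Cm174 (-0.462 against -0.658), 18S-Gm644 (-0.201 against -0.613), 18S-Cm797 (-0.289 against -0.824), 18S-Um1442 (-0.114 against -0.487), 18S-Um1804 (-0.308 against -0.694) and 28S-Cm2803 (-0.251 against -0.765). At 28S-Am2814 the difference between the effects did not pass the threshold (-0.0557 against -0.0463, adjusted p = 0.787).

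The share of each library's read ends on each RNA was the second measure. U1, which pairs with the 5' splice site, took 0.398%, 0.436% and 0.440% of the siNT read ends and 0.744%, 0.718% and 0.774% of the siDHX15 read ends. The siDHX15 mean was 1.76 times the siNT mean. The share was 0.406% to 0.460% in WT and 0.368% to 0.460% in the knockout, below all siDHX15 libraries. U3, a box C/D RNA that directs early cleavage of the rRNA precursor, took 0.171%, 0.168% and 0.172% in siNT and 0.262%, 0.234% and 0.275% in siDHX15, a ratio of 1.51. U4, which unwinds from U6 when the spliceosome is activated, took 0.0464%, 0.0307% and 0.0490% in siNT and 0.0702%, 0.0622% and 0.0652% in siDHX15, a ratio of 1.57. U8, needed for the large subunit's RNAs, took 0.0267%, 0.0272% and 0.0245% in siNT and 0.0375%, 0.0444% and 0.0348% in siDHX15, a ratio of 1.49. For these 4 RNAs siNT and siDHX15 did not overlap. Untreated WT libraries overlapped siDHX15 for U4, with 0.0338% to 0.0749%, and for U8, with 0.0323% to 0.0381%. For U3 they had 0.180% to 0.188%, and the knockout had 0.154% to 0.204%, below all siDHX15 libraries.

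The ratio was 1.51 for U6, 1.35 for U5 and 1.16 for U2, but their groups overlapped. U6 took 0.247%, 0.217% and 0.145% in the siDHX15 libraries, where siNT had 0.128%, 0.127% and 0.148%. All small RNAs together took 1.66%, 1.33% and 1.42% in siNT and 2.10%, 2.00% and 2.23% in siDHX15, a ratio of 1.44. 18S took 36.0%, 34.5% and 34.7% in siNT and 37.3%, 36.3% and 36.4% in siDHX15, and 28S took 60.0%, 61.9% and 61.2% against 58.6%, 59.4% and 59.3%. Read ends on 28S over those on 18S were thus 1.74 ± 0.0680 (SD, n = 3) in siNT and 1.61 ± 0.0359 in siDHX15. 5.8S took 2.44% ± 0.245 in siNT and 2.11% ± 0.157 in siDHX15, with overlap.

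An exact two-sided permutation test of 3 libraries against 3 cannot go below 0.1, and each share without overlap gave this value. Adjusted over the 10 RNAs it was 0.167, so no share passed a threshold of 0.05. Shares of a library are relative, so more reads from small RNAs and fewer from rRNA as a whole cannot be told apart. Within rRNA the 18S share was higher in all siDHX15 libraries and the 28S share lower. Fragments were selected for length, and the part of the higher small RNA shares in the scores was not tested. The scores are set against neighbours in the same RNA and library.

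**Figure D4:**
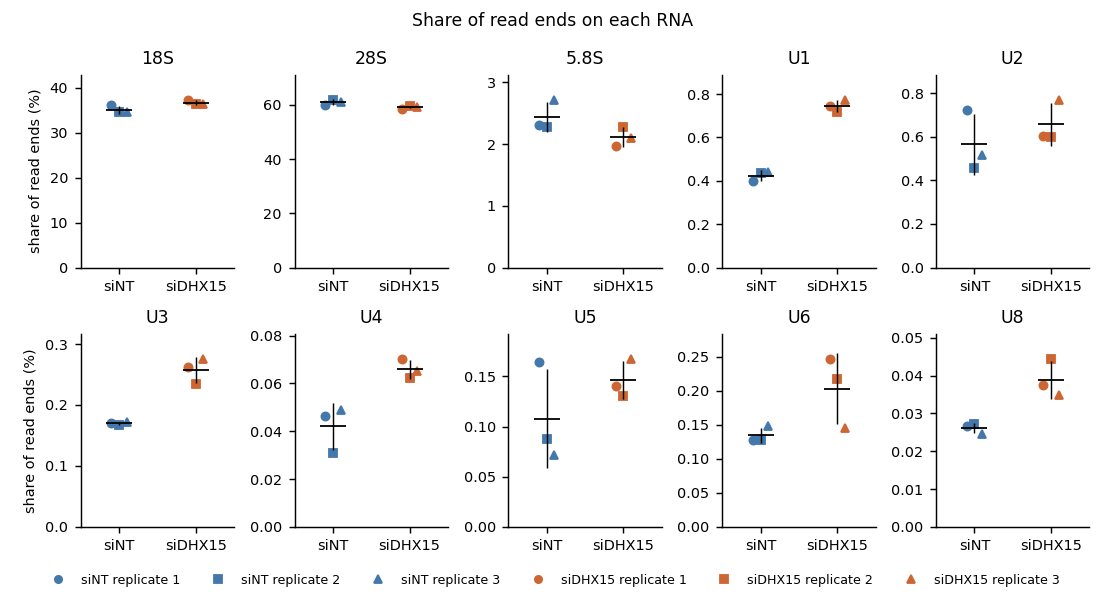
Share of each library's read ends (percent, vertical axis from 0, scaled for each RNA) on the 10 RNAs in siNT (blue) and siDHX15 (orange), with a marker shape for each replicate, a dash for the mean and a bar for the SD of 3 libraries. U1, U3, U4, U8 and, by a small margin, 18S are higher in all siDHX15 libraries than in any siNT library, 28S is lower, and U2, U5, U6 and 5.8S overlap.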

How the data were processed

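Per the labels' protocols, alkaline fragments of total RNA between 20 and 40 nt were joined to linkers by a tRNA ligase for Ion Proton sequencing. Tools named in the submitters' processing notes are cutadapt 2.0 and Bowtie2 2.3.4.1, and the build is hg38. Per the file headers, the authors deposited counts of read 5' and 3' ends at 8164 positions of 10 RNAs for each library, and their score as a fraction. Recomputing the score from the counts gave the deposited value at all 8044 positions with 6 neighbours on both sides (tolerance 1e-09). For the 8 sites at the first and second base of U1, U2, U4 and U5, the deposited recalculated fractions were used.

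The fit used limma 3.58.1 (R 4.3.3) on the scores, with 4 group means over 12 libraries, two-sided tests of siDHX15 minus siNT and Benjamini-Hochberg adjustment over 141 sites at 0.05. Shares of read ends were tested with an exact permutation test over 3 against 3 libraries. edgeR 4.0.16 on the counts, with the neighbour mean as offset, was an alternative. On simulated data with 40 lowered sites among 141, limma recovered 34 with 0 false calls and edgeR 35 with 1. The data were simulated once, with an assumed scatter of the counts, fixed neighbour means and no shift common to all sites. These counts therefore give no error rate for the real calls. The titles call the replicates biological, and p-values measure the spread between cultures. In the fit this spread is pooled within all 4 groups, so the WT and knockout libraries enter the p-values of siDHX15 minus siNT. Those libraries were deeper, with 7437847 to 16314082 read ends against 875096 to 5111963 in the siRNA libraries. Replicates with the same number in the titles of siNT and siDHX15 had weakly correlated deviations from the group means. The correlations across sites were 0.117, 0.160 and 0.166 for numbers 1 to 3, and they were not tested. The titles do not say whether a number marks a shared day or passage. The fit with the replicate number as a block is given where it changes a call.

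All sites past the threshold are named. All 6 values are given for the 20 largest decreases whose groups do not overlap and for lower snRNA sites. Also named are uncalled sites within 100 nt between called ones, other sites of a called site's listed guide, and the 5 largest positive and negative differences among uncalled sites. Sites, segments and lists were chosen with earlier results of these data known, and runs of lower sites no more than 50 nt apart were picked after their values were seen. A few uncalled 18S sites outside this rule were named after their values were seen, to complete the lists of neighbours. Guides of rRNA sites are background knowledge and were not measured.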

Additional observations from a re-analysis of the deposited data

How the results depend on the processing

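The 44 lower sites became 20 of 128 sites from read 3' ends alone, and 27 lower and 15 higher when each library was centred. The other settings gave 31 to 52 lower sites: 48 from read 5' ends alone, 35 with libraries thinned to the shallowest, 38 of 97 sites with a neighbour mean of at least 100 read ends, 52 on the logit scale, 48 in edgeR and 31 with the library index as a block. Of the 44 calls, 41 were kept from read 5' ends alone, 41 on the logit scale, 39 in edgeR and 28 with the index block. The replicate block gave 41 lower, of which 37 were among the 44, and 1 higher. It changed the call at 12 sites, all given with their blocked values, and no other call. Leaving out each replicate in turn gave 36 to 44 lower and 0 to 1 higher sites. The median difference over all sites, -0.0569, was -0.0438 from read 5' ends, -0.0726 from read 3' ends, -0.0604 with recalculated values wherever given, -0.0762 with the filter of 100, -0.0486 with the index block, -0.0612 to -0.0565 without single replicates and 0.0122 after centring. Centring turned the sign at 28S-Gm4228 (0.00361), 28S-Am2814 (0.0135), U2-Am1 (0.0140), U2-Am30 (0.0220) and 28S-Gm4196 (0.0226). Of the 44 calls, 17 held in every setting that gave a value, 14 were lost in 1 to 3 settings and 13 in more. The cause of these changes was not tested. The ratios of read end shares stayed close to their main values, with 1.37 to 1.54 for small RNAs without single replicates. The overview holds group means only, so recalculated replicate values stood in for it, and medians were not computed for edgeR and the logit, which have other scales. Low depth limits the snRNA sites most.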
